A study of Macaca mulatta with 6 samples.

Results

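FAS, FASLG, TNFRSF10B and CASP8 were followed in cultured luteal cells of rhesus macaques through every probe set that the platform annotation names for them. These are 4 of the 14132 genes named on the array, and they had 8 of its 52865 probe sets, namely 4 for FAS, 2 for CASP8 and 1 each for FASLG and TNFRSF10B. The series asked which genes the liver X receptors (LXRs), nuclear receptors that sense oxidised cholesterol, control in these cells. The cells came from corpora lutea, the progesterone-secreting glands left in the ovary after ovulation, collected on day 12 after the surge of luteinizing hormone. Straight after plating on fibronectin in serum-free medium, 3 cultures received 1 µM T0901317, a synthetic LXR agonist, for 24 h, and 3 received 0.1% dimethyl sulfoxide (DMSO), the vehicle, for the same time. The design text calls the replicates paired and biological, and the animals behind them are not described further in the sources used here.

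Death receptors are members of the tumour necrosis factor receptor superfamily that carry a death domain on the inner side of the membrane. When FASLG binds FAS, or the ligand TNFSF10 (also called TRAIL) binds TNFRSF10B (also called DR5), the receptor gathers the adaptor FADD and the protease caspase-8, product of CASP8. Activated caspase-8 starts the protease cascade that dismantles the cell. In mouse and cow, FAS has been studied as a trigger of luteal cell death when the corpus luteum regresses.

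Values are log2 levels, so a difference of 1 is a doubling, and 1 probe set's level says nothing about another's. Median levels of the 6 arrays ran from 5.54 to 5.71. A dim-signal reference, set at the 95th percentile of the Bacillus controls' mean levels, was 4.63. Replicate 3 stood apart in RNA quality: the actin control's 3' signal exceeded its 5' signal by 2.45 with T0901317 and 3.50 with DMSO there, and by 1.54 to 2.03 on the other 4 arrays. Markers of luteal steroidogenic cells were well above the dim-signal reference. Their mean level over the 5 of 8 listed genes measured was 8.65 to 9.06 with T0901317 and 8.78 to 9.30 with DMSO. In such bulk RNA, fewer cells of a type and less RNA per cell cannot be told apart.

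No probe set of the 4 genes passed the threshold of an adjusted p of 0.05 for T0901317 minus DMSO (0 of 8; limma with the replicate number as a block, adjusted by Benjamini-Hochberg over 52766 probe sets). The background was 45 probe sets called, or 0.0853% of those tested. All 8 had an adjusted p of 1.00, and 1 of 8 had an unadjusted p under 0.05, against 3.72% of all probe sets. The T0901317 and DMSO levels overlapped on all 8, while the groups did not overlap on 2.45% of all probe sets. The changes ran from -0.39 for CASP8 to 0.05 for FASLG, with 7 of 8 below 0 and a median of -0.12, against a median of 0.0044 and 48.5% below 0 over all probe sets. Probe sets of 1 gene share that gene's RNA, so they do not count as separate findings. Read from the brightest probe set of each gene, FAS, TNFRSF10B and CASP8 lay below 0 and FASLG above. Over the 14132 named genes read in the same way, 58.6% lay below 0 and the median was -0.02. With a smallest two-sided exact p of 0.25 for 3 pairs, single probe sets rest on the spread that limma pools across the array.

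**Figure D1:**
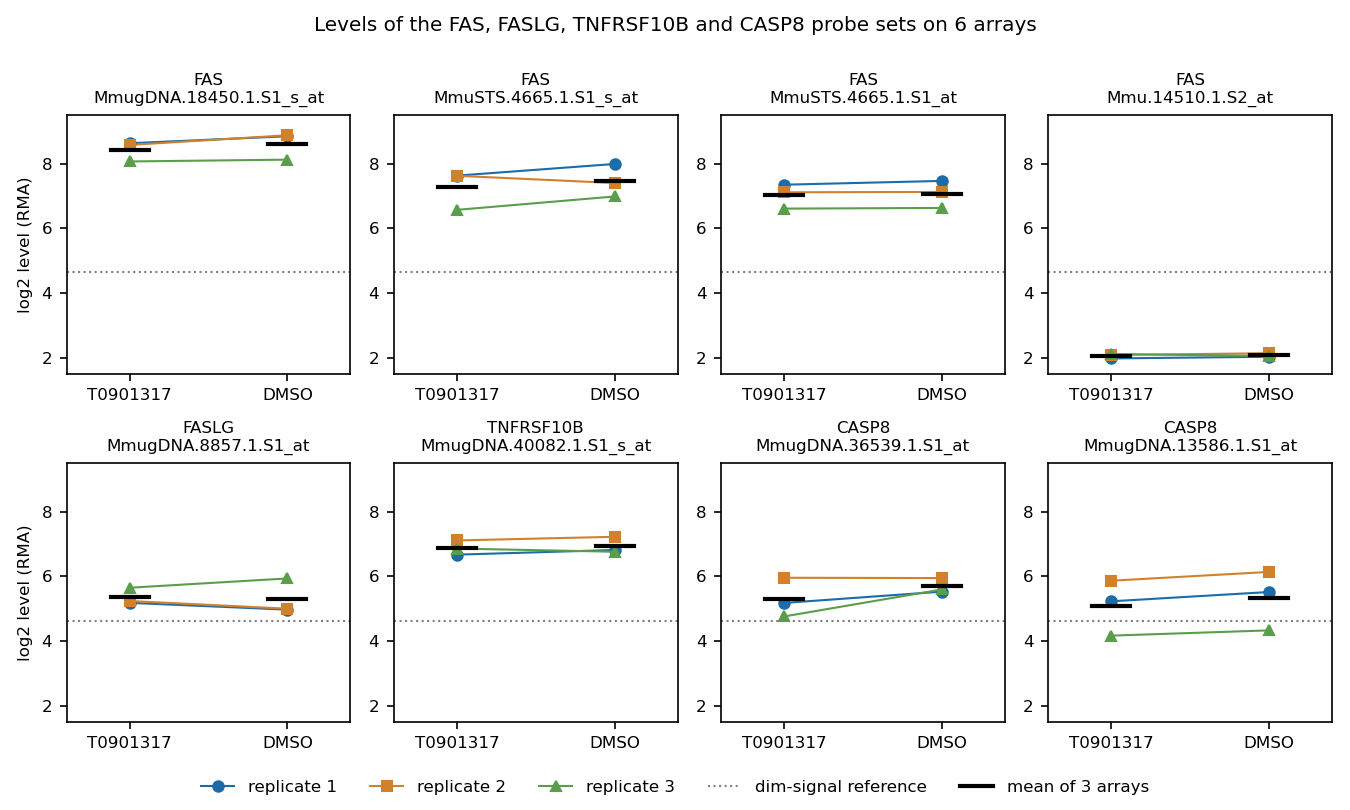
Log2 level (vertical axis) of each of the 8 probe sets with T0901317 and with DMSO (horizontal axis). Coloured symbols are single arrays joined by replicate number, black bars are means of 3 arrays and the dotted line is the dim-signal reference of 4.63. Replicate 3 is lowest on the 3 brighter FAS probe sets and highest for FASLG, in both treatments.

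FASLG encodes the membrane-bound ligand of FAS, which cytotoxic T cells and NK cells carry. Its probe set MmugDNA.8857.1.S1_at had levels of 5.18, 5.24 and 5.65 in replicates 1, 2 and 3 with T0901317, against 4.97, 5.00 and 5.94 with DMSO. Replicate 3 was the highest in both treatments, and all 6 levels lay above the dim-signal reference. The pairs disagreed, with differences of 0.21, 0.24 and -0.29. The estimated change was 0.05 ± 0.14 (limma's SE, n = 3 pairs; 95% interval -0.26 to 0.37; adjusted p = 1.00). It was -0.025 without replicate 1, -0.039 without replicate 2 and 0.22 without replicate 3, so its sign depended on which pairs were used.

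The mean level of T and NK cell markers was also highest in replicate 3. Over the 6 of 12 listed markers measured (CD7, CD8A, GNLY, NKG7, GZMB and KLRD1), the mean level was 8.37, 8.41 and 9.14 in replicates 1, 2 and 3 with T0901317, against 8.53, 8.54 and 9.25 with DMSO. CD7 lay below the dim-signal reference. Single markers differed in this: CD8A had 6.62, 7.43 and 8.79 with T0901317 and 6.73, 7.47 and 8.74 with DMSO. GNLY and NKG7 were also highest in replicate 3, while KLRD1 and the dim CD7 were lowest there, in both treatments. GZMB in replicate 3 was little above replicate 1, at 11.32 against 11.24 with T0901317 and 11.47 against 11.44 with DMSO. In all 3 pairs the list's mean was lower with T0901317, by 0.15, 0.13 and 0.11, whereas FASLG differed in sign between pairs. The part of these cells in the FASLG levels was not tested.

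FAS encodes the receptor of FASLG. On its brightest probe set, MmugDNA.18450.1.S1_s_at, whose suffix s_at marks probes that can match several transcripts, the levels were 8.63, 8.58 and 8.07 in replicates 1, 2 and 3 with T0901317, against 8.85, 8.88 and 8.12 with DMSO. Each treated array was lower than its own vehicle array, by 0.22, 0.30 and 0.056, but the treated arrays of replicates 1 and 2 lay above the vehicle array of replicate 3. The means were 8.42 ± 0.31 with T0901317 and 8.61 ± 0.43 with DMSO (SD, n = 3 each). The estimated change was -0.19 ± 0.09 (limma's SE; 0.88-fold; 95% interval -0.40 to 0.02; adjusted p = 1.00), and it ranged from -0.26 without replicate 3 to -0.14 without replicate 2.

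The other FAS probe sets did not give the same picture of the treatment. MmuSTS.4665.1.S1_s_at, with the same suffix, had 7.63, 7.62 and 6.57 with T0901317, against 7.99, 7.40 and 6.98 with DMSO. It was lower with T0901317 in pairs 1 and 3, by 0.36 and 0.41, and higher in pair 2, by 0.22. Its estimated change of -0.18 ± 0.13 (95% interval -0.48 to 0.11) became -0.39 without replicate 2 and -0.069 without replicate 3. MmuSTS.4665.1.S1_at had 7.35, 7.11 and 6.61 with T0901317, against 7.46, 7.12 and 6.63 with DMSO. Its pair differences were -0.12, -0.011 and -0.021, and its change was -0.05 ± 0.11 (95% interval -0.28 to 0.18). In pair 2, where the brightest probe set had its largest difference, this one had its smallest. The last FAS probe set, whose name ends in S2_at, was at 1.97 to 2.11 with T0901317 and 2.03 to 2.13 with DMSO, below the dim-signal reference on every array. Its change of -0.014 ± 0.094 therefore describes dim signal.

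All 3 brighter FAS probe sets had their lowest level in replicate 3 in both treatments. Set against the mean of replicates 1 and 2, replicate 3 had differences of -0.54, -1.06 and -0.62 with T0901317, and of -0.74, -0.71 and -0.67 with DMSO, in the order in which the probe sets are described. These gaps were larger than any pair difference of the same probe set. Replicate 3 also had the largest 3' minus 5' differences. With the mean 3' minus 5' difference of actin, GAPDH and EF1a as a covariate, the treatment changes were -0.23 ± 0.09, -0.14 ± 0.12 and -0.07 ± 0.11. Without it they were -0.19, -0.18 and -0.05, and none passed the threshold in either fit. That refit keeps the replicate number as a block, so it does not address the gaps between replicates. The part of RNA quality in those gaps was not tested.

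TNFRSF10B encodes a receptor of TNFSF10. Its only probe set, MmugDNA.40082.1.S1_s_at, also of the kind that can match several transcripts, had levels of 6.67, 7.11 and 6.86 with T0901317, against 6.82, 7.23 and 6.76 with DMSO. Replicate 2 was the highest in both treatments, by 0.44 over replicate 1 with T0901317 and by 0.41 with DMSO. The treated array was lower in pairs 1 and 2, by 0.14 and 0.11, and higher in pair 3, by 0.10. The estimated change was -0.05 ± 0.11 (95% interval -0.30 to 0.19; adjusted p = 1.00), and it was -0.0074 without replicate 1, -0.023 without replicate 2 and -0.13 without replicate 3. An interval of 0.81-fold to 1.14-fold, which is not adjusted for the number of probe sets, does not show that the drug left the gene unaltered.

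CASP8 had the largest estimated changes of the 4 genes, on both its probe sets. On the brighter one, MmugDNA.36539.1.S1_at, the levels were 5.18, 5.96 and 4.76 with T0901317, against 5.53, 5.95 and 5.60 with DMSO. The difference was -0.349 in pair 1, 0.0098 in pair 2 and -0.835 in pair 3, so 2 of 3 pairs lay below 0. The estimated change was -0.39 ± 0.16 (limma's SE; 0.76-fold; 95% interval -0.74 to -0.04; unadjusted p = 0.031; adjusted p = 1.00). Its size exceeded that of 99.1% of all probe sets, but 1236 probe sets had an unadjusted p as small or smaller. The estimate rested largely on pair 3: it was -0.17 without replicate 3, -0.59 without replicate 2 (adjusted p = 0.67) and -0.41 without replicate 1. The treated array of pair 3, at 4.76, lay close to the dim-signal reference of 4.63. In pair 3 the 3' minus 5' difference averaged over actin, GAPDH and EF1a was also 0.59 lower with T0901317. With that measure as a covariate the change was -0.27 ± 0.15 (limma's adjusted p = 0.71). On the other CASP8 probe set the same covariate gave -0.27 ± 0.14, against -0.24 without it. This refit leaves less information on a probe set's own spread. The part of RNA quality in the CASP8 differences was not tested.

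The second CASP8 probe set, MmugDNA.13586.1.S1_at, gave a smaller and more even difference. Its levels were 5.23, 5.87 and 4.17 with T0901317, against 5.52, 6.14 and 4.33 with DMSO. All 3 pairs lay below 0, at -0.29, -0.27 and -0.16, a spread of 0.068 (SD). The estimated change was -0.24 ± 0.13 (0.85-fold; 95% interval -0.52 to 0.03; adjusted p = 1.00), and -0.28 to -0.22 when 1 replicate was left out. Both arrays of replicate 3 lay below the dim-signal reference on this probe set. Over the 8 probe sets, 3 had the same sign in all 3 pairs, as did 12226 of all 52766 probe sets. All 3 lay below 0, and 11.1% of all probe sets lay below 0 in all 3 pairs. These were this one and, from the single gene FAS, its brightest probe set and MmuSTS.4665.1.S1_at.

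**Figure D2:**
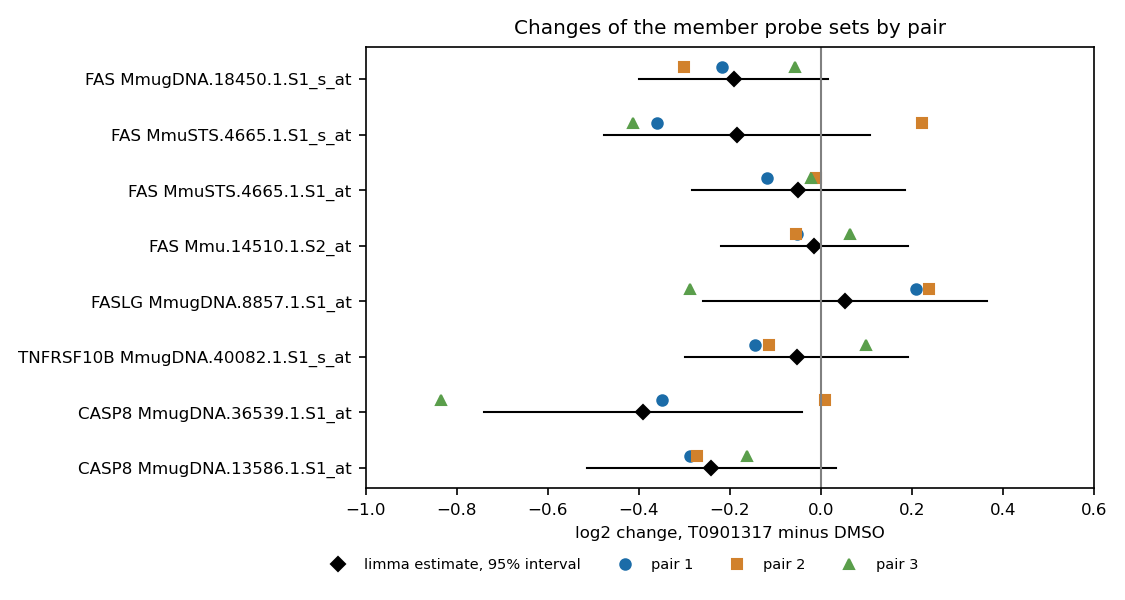
Log2 change, T0901317 minus DMSO (horizontal axis), of the 8 probe sets (vertical axis). Coloured symbols are the 3 pairs, and black diamonds with lines are limma's estimates with their unadjusted 95% intervals. The interval lies wholly below 0 for MmugDNA.36539.1.S1_at of CASP8, -0.74 to -0.04, whose pairs spread from -0.835 to 0.0098.

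The CASP8 probe sets agreed on the order of replicates with T0901317 and not with DMSO. With T0901317 both had replicate 2 highest and replicate 3 lowest. With DMSO, the difference between replicate 3 and the mean of the other replicates was -0.14 on MmugDNA.36539.1.S1_at and -1.497 on MmugDNA.13586.1.S1_at. In human cells CASP8 is known to be raised by interferon. Of 7 listed interferon-induced genes, 5 were measured and 3 fell past the threshold with T0901317, against 0.177% of the 14132 named genes called. The list was chosen with earlier results of these data known, so this count is a description and not a test. ISG15 fell by 0.71, IFIT1 by 0.73 and MX1 by 0.50 on the log2 scale. IRF1 and TAP1 had -0.09 and -0.22 and did not pass. MX1 missed the threshold when replicate 1 was left out (-0.45; limma's adjusted p = 0.38) or replicate 2 (-0.50; limma's adjusted p = 0.059). In a fit that ignored the pairs, none of these 3 genes passed (limma's adjusted p = 1.00 for each). ISG15, IFIT1 and MX1 were lowest in replicate 2 in both treatments, where both CASP8 probe sets were highest. ISG15 had 11.89, 8.85 and 12.32 in replicates 1, 2 and 3 with DMSO. IRF1 was instead highest in replicate 2, and TAP1 in replicate 3. The part of interferon in the CASP8 differences was not tested.

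Most of the variation of the 4 genes lay between replicates. The replicate number took 61.7% to 98.9% of the sum of squares over the 6 arrays on the 8 probe sets, and the treatment took 0.58% to 21.5%. Over all probe sets the medians were 77.1% for the replicate number and 3.76% for the treatment. The treatment's share was highest on MmugDNA.36539.1.S1_at of CASP8, where the residual took 16.8%. It was 8.94% on the brightest FAS probe set. On MmugDNA.13586.1.S1_at of CASP8 the replicates took 97.2%, and the DMSO levels alone spanned 1.81.

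**Figure D3:**
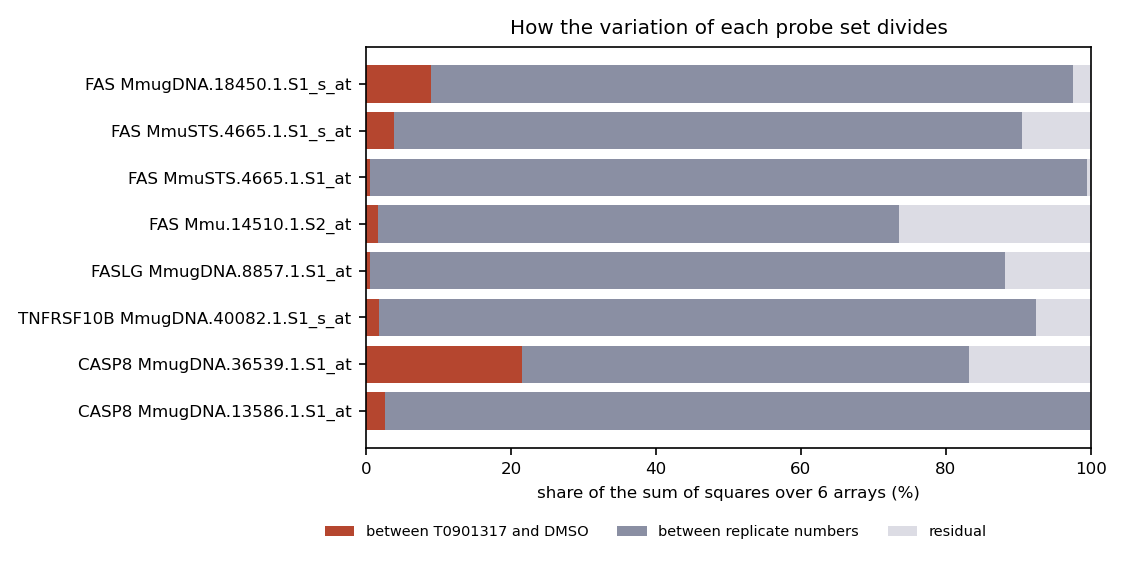
Share of the sum of squares over 6 arrays in percent (horizontal axis) for each of the 8 probe sets (vertical axis), divided into treatment, replicate number and residual. Replicate number takes the largest part of every bar, 61.7% to 98.9%, and treatment reaches 21.5% on 1 probe set of CASP8.

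For each gene, the named genes with the most similar levels over the 6 arrays were looked up among 11385 genes above the dim-signal reference. With 6 arrays in 3 pairs such likeness is common: 387 genes had a Pearson r over 0.95 with FAS, 192 with FASLG, 202 with TNFRSF10B and 26 with CASP8. For FAS the closest were FTO, PLXNA2 and DHPS, with r of 0.996, 0.995 and 0.994. For FASLG they were PYHIN1, CHAT and ZAP70, with 0.999, 0.997 and 0.995. For TNFRSF10B they were M6PR, CTSK and SPON2, with 0.998, 0.997 and 0.996. For CASP8 they were KMT2C, OGFR and TMEM60, with 0.990, 0.982 and 0.980. None of these 12 genes passed the threshold, each with an adjusted p of 1.00. ZAP70, a kinase of T cell receptor signalling, had 7.58, 7.63 and 8.09 with T0901317, against 7.42, 7.48 and 8.45 with DMSO.

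No other gene of the death receptor pathway passed the threshold either. Of 43 listed genes 26 were measured under a name, each by its brightest probe set, and 0 rose, 0 fell and 26 did not pass, against 0.177% of the 14132 named genes called. All 26 lay above the dim-signal reference. The changes ran from -0.61 to 0.19 with a median of -0.06 and 19 of 26 below 0, against a median of -0.02 and 58.6% below 0 over all named genes.

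Among the ligands, TNFSF15, a cytokine of endothelial cells that binds TNFRSF25, had the largest difference of the list. Its levels were 6.16, 6.43 and 5.77 with T0901317, against 6.96, 7.08 and 6.15 with DMSO. Each treated array was lower than its own vehicle array, by 0.81, 0.65 and 0.38, while the 2 groups overlapped through the vehicle array of replicate 3. The estimated change was -0.61 ± 0.12 (limma's SE; 0.65-fold; 95% interval -0.88 to -0.34; adjusted p = 0.22), and it was the only one of the 26 with an unadjusted p under 0.05 in limma's fit (4.0e-04), where the background was 3.73% of named genes. It passed without replicate 3 (-0.73, limma's adjusted p = 4.2e-04) and with the 3' minus 5' measure as a covariate (-0.70, limma's adjusted p = 0.0026), and in no other refit. Without replicate 3 the SE was 0.15, against 0.12 with all pairs, so the change was no larger relative to its SE. Both refits leave less information on the probe set's own spread, so their p-values rest more on the spread that limma pools. Endothelial markers, measured for 8 of 8 listed genes, averaged 6.75 to 7.18 with T0901317 and 6.57 to 7.06 with DMSO, with KDR below the dim-signal reference. This mean was higher with T0901317 in all 3 pairs, by 0.14, 0.12 and 0.21, though 0 of 8 markers passed the threshold and VWF differed by -0.045 and -0.012 in pairs 1 and 2. The part of endothelial cells in the TNFSF15 levels was not tested.

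TNFSF10, the ligand of TNFRSF10B, had 7.88, 7.82 and 7.38 with T0901317, against 7.73, 7.59 and 7.26 with DMSO. All 3 pairs lay above 0, with an estimated change of 0.16 ± 0.10 (adjusted p = 1.00), but its other 3 probe sets had 0.04, -0.09 and -0.09. TNF itself, the ligand after which the superfamily is named, had 0.0014 ± 0.12.

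Among the receptors the largest values were those of NGFR, the p75 neurotrophin receptor (-0.22 ± 0.13), and TNFRSF25 (0.19 ± 0.13), each in the same direction in all 3 pairs. The other 2 probe sets of TNFRSF25 had 0.018 and 0.025, with mixed signs over the pairs. TNFRSF10A, the other death-domain receptor of TNFSF10, had -0.05 ± 0.11. TNFRSF11B, or osteoprotegerin, a soluble decoy that also binds TNFSF10, had -0.06 ± 0.10. Its levels were 9.08, 9.41 and 5.81 with T0901317, against 9.16, 9.30 and 6.01 with DMSO. Replicate 3 was thus far lower in both treatments, and the second probe set was also lowest there.

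Among adaptors and kinases, RIPK3, which drives necroptosis when caspase-8 is inactive, had -0.17 ± 0.12, and MLKL, the membrane-disrupting protein it phosphorylates, had -0.12 ± 0.09. Both lay below 0 in all 3 pairs. Among the other caspases, CASP10, a close relative of CASP8 in primates, had 0.09 ± 0.12 and CASP2 had -0.08 ± 0.12. CFLAR, or FLIP, which competes with caspase-8 at the receptor, had -0.01 ± 0.08 at levels of 9.18 to 9.42 with T0901317 and 9.21 to 9.44 with DMSO. Among inhibitors the largest values were -0.18 ± 0.12 for FAIM, named for blocking FAS-driven death, and -0.07 ± 0.07 for BIRC3, a ubiquitin ligase of the inhibitor of apoptosis family. At the mitochondrial link, HTRA2, a protease that can be released from mitochondria, had -0.08 ± 0.10, and DIABLO, which neutralises inhibitors of apoptosis, had -0.07 ± 0.08. The other probe sets of HTRA2 had 0.035 and -0.18. Those of CASP2, FAIM and BIRC3 also lay below 0, and those of CFLAR lay above 0. All of these had an adjusted p of 1.00.

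**Figure D4:**
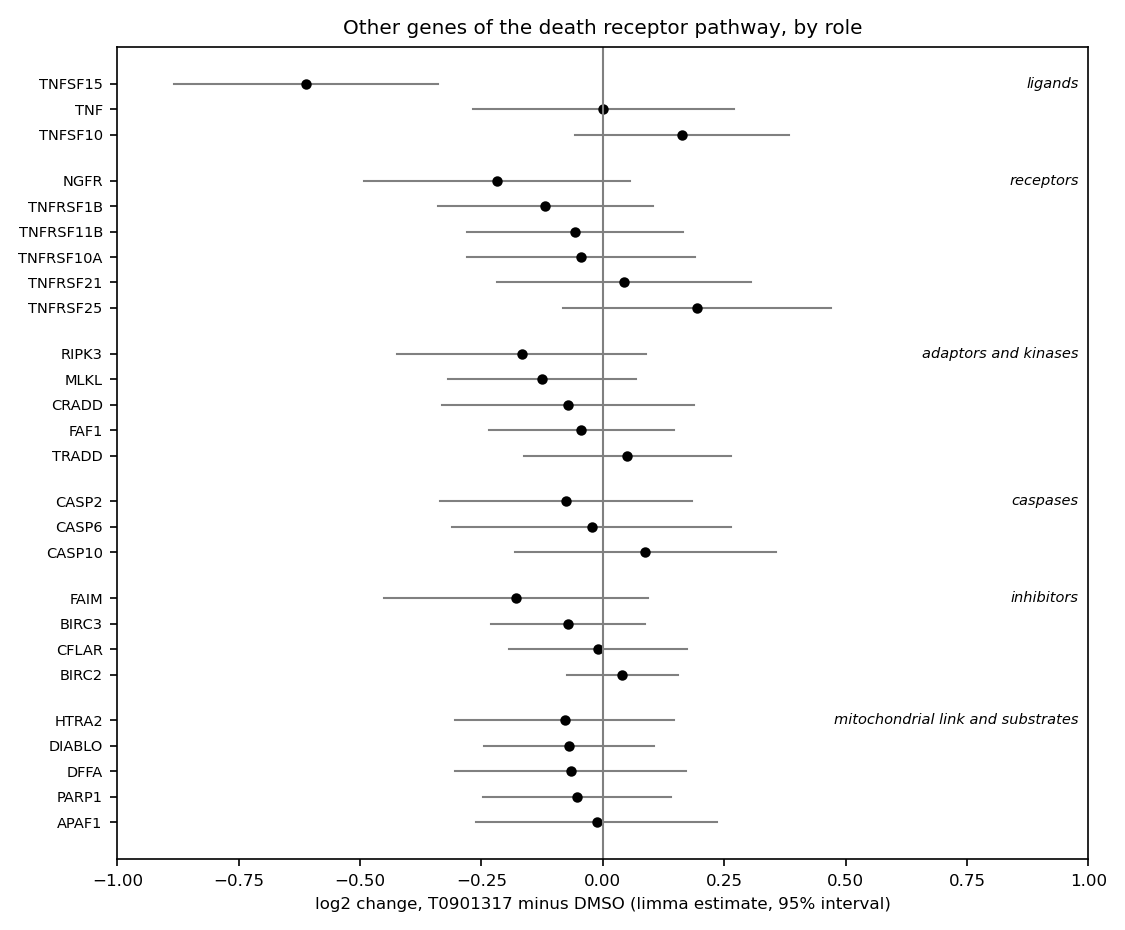
Log2 change, T0901317 minus DMSO (horizontal axis), for the 26 measured genes of the pathway list (vertical axis, grouped by role). Points are limma's estimates and lines their unadjusted 95% intervals. TNFSF15 lies apart at -0.61, and the other 25 points lie between -0.22 and 0.19 with intervals that cover 0.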

How the data were processed

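The deposited values are log2 levels, made by the authors with RMA per the submitters' processing notes; neither the version nor whether the 6 arrays were processed together is given in the sources used here. Control probe sets (99) were left out, which left 52766. Symbols came from the supplied platform annotation: 24956 probe sets had 1 gene symbol, 361 several and 27449 none. Gene numbers matched the supplied RefSeq table for 24616, and 0 symbols changed. Each gene was read from its brightest probe set by mean level. T0901317 minus DMSO was fitted with limma 3.58.1 in R 4.3.3, with treatment and replicate number (a block) as terms and trended eBayes, two-sided, adjusted by Benjamini-Hochberg, at a threshold of 0.05. The pairing comes from the design text; deviations from the group mean correlated at 0.658, 0.813 and 0.830 within same-numbered arrays. Sums of squares were divided between treatment, replicate number and residual. Named genes were all probe sets of the 4 genes, pathway genes past the threshold, the 2 largest changes in each role, 7 interferon-induced genes, and the 3 named genes most correlated with each; TNF, TNFRSF10A, TNFRSF11B and CFLAR were chosen after their values were seen. Members and lists were chosen with earlier results of these data known. The fit was tested on simulated data. The number of arrays limits precision; no array dates were used.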

Additional observations from a re-analysis of the deposited data

How the results depend on the processing

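None of the probe sets of the 4 genes passed the threshold in any of the 11 alternatives (0 calls in limma; 0 to 2 with an unadjusted p under 0.05), and the sign of the change turned only for FASLG (-0.025 without replicate 1, -0.039 without replicate 2, 0.22 without replicate 3) and for the dim FAS probe set (0.0053 and 0.0059 without replicates 1 and 2, -0.053 without replicate 3). Without the replicate block, the adjusted p was 1.00 for all 8. The pathway list had 0 calls, except 1 without replicate 3 and 1 with the 3' minus 5' covariate, TNFSF15 in both (-0.73 and -0.70); leaving out 1 replicate gave 0 to 1 calls. Among the other pathway genes named, the sign also turned for 5 of small change when 1 replicate was left out, with ranges of -0.13 to 0.0078 for TNFRSF10A, -0.18 to 0.045 for HTRA2, -0.025 to 0.021 for TNF, -0.14 to 0.015 for TNFRSF11B and -0.040 to 0.015 for CFLAR. After quantile normalization and cyclic loess it turned for TNF (-0.029 and -0.027) and CFLAR (0.032 and 0.029). The list's median ran from -0.074 to -0.0011. Over all probe sets, 45 calls became 0 without the replicate block (143 at an unadjusted p under 0.05), 27 after quantile normalization, 27 after cyclic loess, 11 without the trend, 246 with the 3' minus 5' covariate and 35 to 328 when 1 replicate was left out. The cause of these shifts was not tested. The dim FAS probe set had no value under the filter on dim probe sets. Low signal limits that probe set and the replicate 3 arrays of CASP8 MmugDNA.13586.1.S1_at. The replicate 3 array with T0901317 was also close to the dim-signal reference on CASP8 MmugDNA.36539.1.S1_at.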
